A study of Mus musculus with 10 samples.

Results

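Zygotes formed from eggs without maternal Tet3 were compared with the sperm of the father strain, to describe the DNA methylation that is lost and gained when the maternal supply of the enzyme is missing. The comparison rests on 4 of the 10 libraries of the series: CKO zygote replicates 1 and 2 and CAST/EiJ sperm replicates 1 and 2. CKO is the name in the labels for embryos whose genotype is given as maternal Tet3 KO, and the sperm libraries are labelled WT. All embryos are C57BL/6J x CAST/EiJ hybrids made by in vitro fertilisation. Egg donors were superovulated females of 7 to 10 weeks, and sperm was taken from the epididymal tail of adult males of the father strain, CAST/EiJ. Zygotes were frozen 13 h after fertilisation, with 40 to 50 pooled per library and biological duplicates per group. The labels give neither the Cre driver of the knockout nor an exact age of the sperm donors. WT zygotes of the same cross, age and pool size, and the blastocysts collected at 96 h (4 per library), serve below as further readings of the same tiles.

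Tet3 encodes a dioxygenase that converts 5-methylcytosine to 5-hydroxymethylcytosine and further oxidised forms, and the egg stores it for the first cell cycle. Sperm DNA enters the egg highly methylated outside CpG islands, and the paternal genome of the zygote is the best known site of Tet3 action. Methylation can also fall without oxidation, because DNA replication makes strands that start unmethylated. The assay, reduced representation bisulfite sequencing (RRBS), reads CpG-rich MspI fragments and does not separate 5-methylcytosine from 5-hydroxymethylcytosine. A level in percent is therefore the share of read calls that carry either mark.

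Counts were summed over 100-bp tiles, and an autosomal tile was used if each of the 4 libraries had at least 10 counts there, which left 25240 of the 183899 autosomal tiles with a count in any library of the series. The sperm libraries held 2535229 and 2315949 counts and the CKO zygote libraries 1408184 and 1508297. Median counts per tile were 46 and 42 in sperm and 26 and 30 in CKO zygotes, over a median of 2 cytosine positions. A read is counted at every position it covers, so tile counts exceed the number of reads. The positions are on mm9, and no gene annotation of that build was used here, so tiles are given by position without a gene, exon or promoter. Every deposited file, those of embryos included, bears the name of the father strain, but nothing in the labels tells if reads were sorted by parent. Whether a zygote value is that of the paternal genome or of both genomes is therefore not settled. As a measurement that bears on this, 3.04% and 2.75% of the tiles unmethylated in sperm lay between 30% and 70% in the CKO zygote libraries. The files name no gene, so the Tet3 genotype and the cell types could not be checked against the data. Replicates are biological by the labels, and no p-value below rests on more than 2 libraries a group.

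Tiles that sperm had methylated stood at 72.6% of their sperm level in CKO zygotes. Here and below, kept, lost and gained describe zygote levels relative to sperm. If reads of the egg genome are included, these levels also hold maternal methylation. Over the 9152 tiles with a pooled sperm level of at least 80%, sperm replicates averaged 96.40% and 96.37% and CKO zygote replicates 70.1% and 69.9%. The zygote libraries lay close together and well below both sperm libraries. The change was -26.4 ± 0.112 points (SD of the difference, n = 2 against 2), which left 72.6% ± 0.115 (SD, n = 2) of the sperm level. With the class taken from one sperm library and the sperm level read in the other, the change was -26.0 points. The 3615 tiles of intermediate sperm level fell from 52.3% and 53.3% to 40.1% and 39.3%, a change of -13.1 ± 0.927 points. The 12473 tiles at 20% or less in sperm went the other way, from 1.31% and 1.41% to 3.05% and 2.89%, a change of 1.61 ± 0.134 points. All 25240 tiles together fell from 43.2% ± 0.134 to 32.5% ± 0.177 (SD, n = 2 each), or by -5.48 points when counts were pooled over tiles. In each class the groups did not overlap and the difference exceeded the spread between replicates. The exact two-sided permutation p was 0.333 each time, the smallest that 2 against 2 libraries can give.

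**Figure D1:**
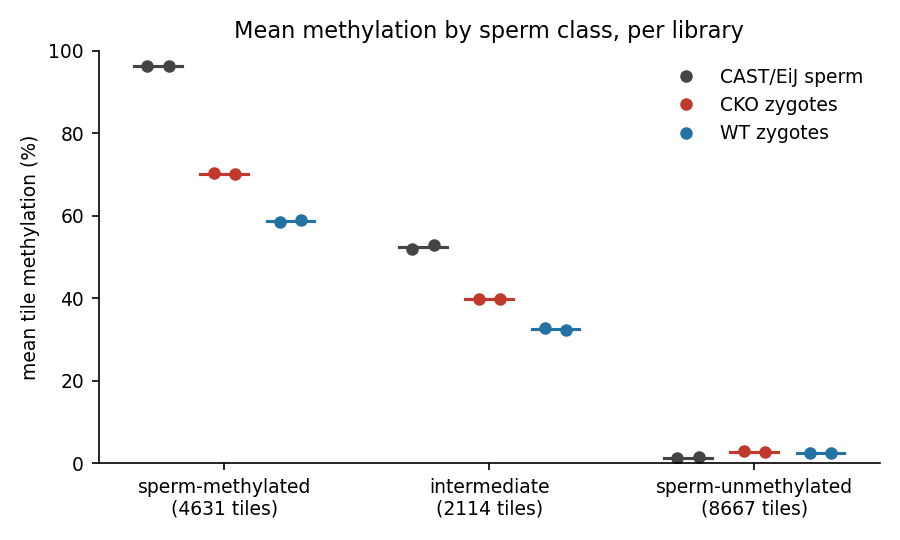
Mean tile methylation (y axis, percent) in CAST/EiJ sperm, CKO zygotes and WT zygotes for the 3 sperm classes, over the tiles with at least 10 counts in each of these 6 libraries; points are libraries and bars are means of 2. In sperm-methylated tiles CKO zygotes (mean 70.1%) sit between sperm (96.3% in both) and WT zygotes (58.5% and 59.0%).

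The loss was close to proportional to the sperm level. Tiles were binned on one sperm library and the sperm level was read in the other, so that choosing a tile for a high value did not enter its sperm level. Tiles at 100% in sperm replicate 1 read 97.2% in replicate 2 and 70.8% in CKO zygotes, or 72.9% of the sperm level (4081 tiles). Tiles at 80% to below 95% kept 72.6% (2376 tiles), those at 60% to below 80% kept 74.5% (1324 tiles) and those at 40% to below 60% kept 73.7% (1556 tiles). Binned on sperm replicate 2, the same 4 shares were 72.6%, 72.8%, 74.3% and 75.7%. The retained share thus varied by a few points while the sperm level fell from near 100% to near 50%. At 20% to below 40% the share was 75.6% or 80.9%, depending on the sperm library used for binning. At 5% to below 20%, zygotes and sperm were nearly level (10.7% against 11.5%, and 9.88% against 9.70%), and below that zygotes were the higher group.

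**Figure D2:**
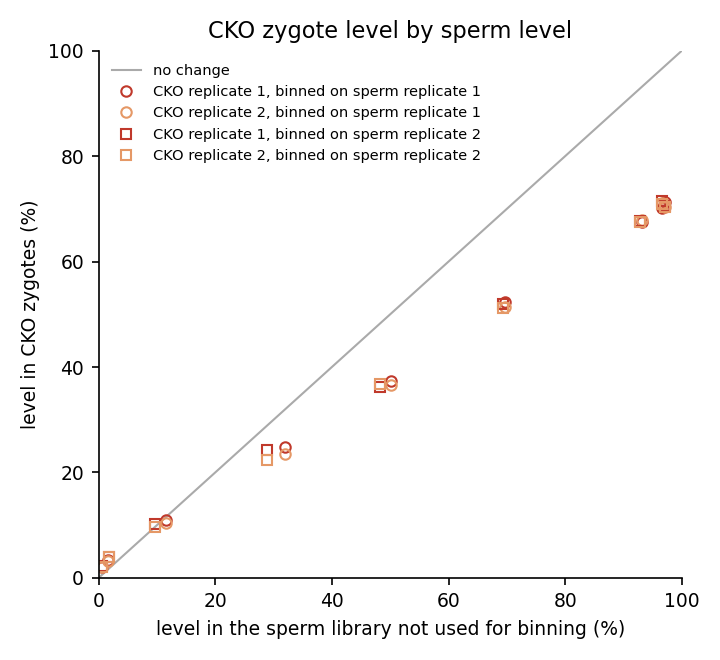
Mean CKO zygote level (y axis, percent) of tiles binned by their level in one sperm library, against their level in the sperm library not used for binning (x axis, percent); circles and squares are the 2 binnings, colours the 2 CKO zygote libraries, and the grey line marks no change. Points fall below the line along a nearly straight course, from 70.8% in zygotes at 97.2% in sperm to 37.0% at 50.2%, and meet it near 10%.

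The fall was spread over many tiles rather than held by a few that were emptied. In sperm, 98.4% and 98.2% of the sperm-methylated tiles were at 80% or more, against 41.5% and 43.2% in the CKO zygote libraries. Only 4.24% and 6.35% were at 20% or less in CKO zygotes, and 54.3% and 50.4% lay in between. Tiles at exactly 0% made up 1.63% and 3.06%. The share at 20% or less depended on depth and averaged 3.00% in tiles with at least 20 counts in every library, against 5.29% here. At the other end, 19.1% and 23.5% of tiles read 100% in CKO zygotes, against 44.6% and 52.2% in sperm. The class was chosen on sperm, which fixes the sperm shares at 80% or more and at 20% or less, so the shares are descriptions without a test. Of 8842 tiles at 80% or more in both sperm libraries, 1853 were at 80% or more in both CKO zygote libraries and 35 at 20% or less in both.

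**Figure D3:**
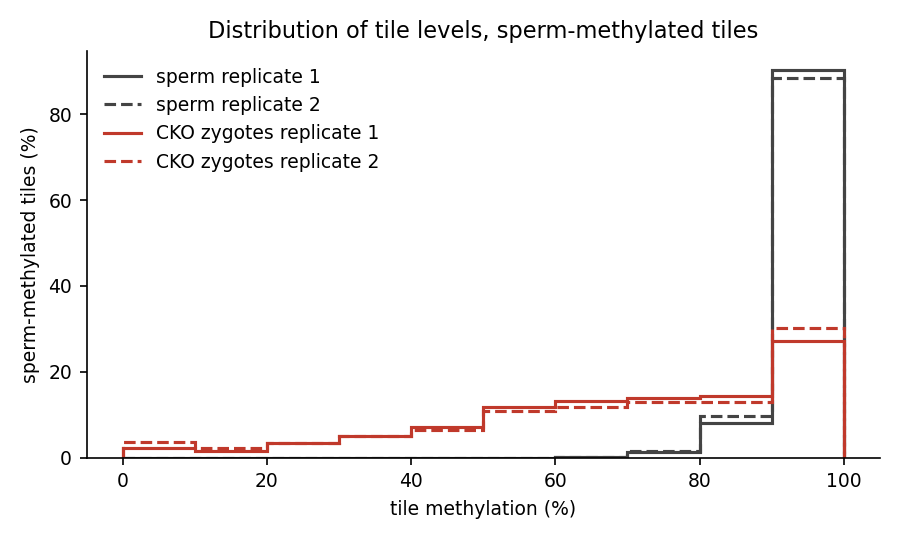
Share of the 9152 sperm-methylated tiles (y axis, percent) in each 10-point bin of tile methylation (x axis), for the 2 sperm and the 2 CKO zygote libraries. Sperm is held almost wholly in the bins above 80%, and CKO zygotes spread over all bins with 41.5% and 43.2% of tiles at 80% or more.

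Among sperm-methylated tiles, those with 4 to 7 covered positions retained slightly more than those with at most 3. No further rise was seen at 8 or more. With at most 3 covered positions, 8388 sperm-methylated tiles kept 72.3% of the sperm level and fell by 26.7 ± 0.0731 points (SD of the difference, n = 2 against 2). With 4 to 7 positions, 733 tiles kept 75.7% and fell by 23.2 ± 0.725 points. The 31 tiles with at least 8 positions kept 75.4% and fell by 22.7 ± 2.14 points, from a sperm level of 92.1%. Intermediate tiles had another pattern: they kept 75.0% with at most 3 positions (2938 tiles), 76.2% with 4 to 7 (658 tiles) and 68.3% with at least 8 (19 tiles). Sperm-methylated tiles within 1 kb of a tile that sperm left unmethylated fell by 23.8 ± 0.847 points (175 tiles). Tiles at over 1 to 10 kb changed by -26.9 points (940 tiles), those at over 10 to 100 kb by -26.6 points (4769 tiles) and those beyond 100 kb by -26.1 points (3268 tiles). The differences between these groups of tiles were not tested.

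Every autosome lost methylation. Per-chromosome changes in sperm-methylated tiles ran from -24.6 points on chromosome 3 to -28.0 points on chromosome 13, with 259 to 748 tiles each. The SD of the 19 changes was 1.03 points, beside a mean gap of 1.32 points between the CKO zygote libraries on the same chromosome. Whether the chromosomes differ from each other was not tested. On a finer scale, each of the 175 windows of 5 Mb with at least 20 sperm-methylated tiles was lower in both CKO zygote libraries than in both sperm libraries. The median window change was -26.9 points, with the middle 90% of windows between -32.8 and -20.0 points. Across these windows the CKO zygote libraries correlated weakly with each other (Pearson r = 0.241, Spearman rho = 0.228, over 175 windows that share 2 libraries and the positions read).

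**Figure D4:**
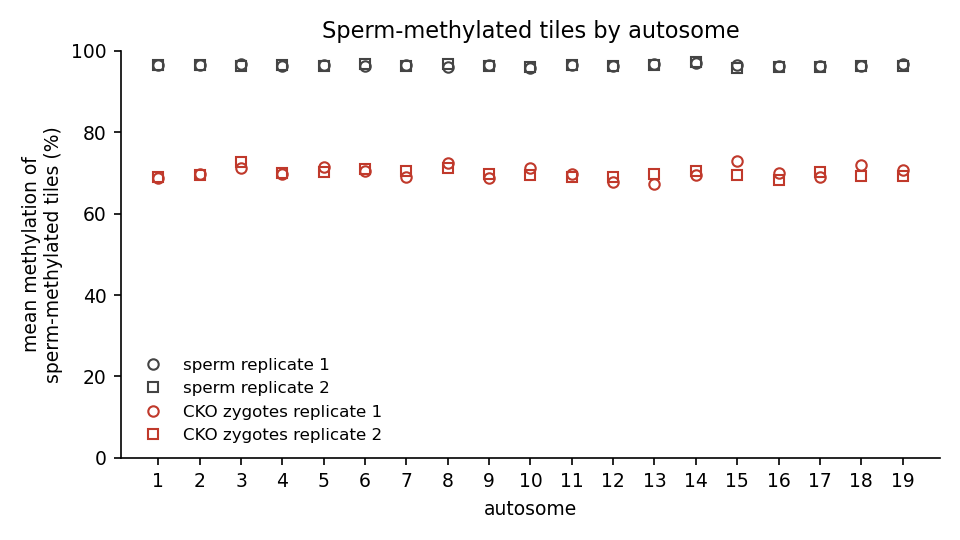
Mean methylation of sperm-methylated tiles (y axis, percent) on each of the 19 autosomes (x axis) in the 2 sperm and the 2 CKO zygote libraries. Sperm stays near 96% throughout and CKO zygotes between 67.3% and 73.0%.

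Which tile was low in a CKO zygote library was repeated only to a small degree in the other. Of the sperm-methylated tiles, 35.4% differed by more than 30 points between the 2 CKO zygote libraries, against 0.306% between the sperm libraries, which are deeper and were used to choose the class. In intermediate tiles, where sperm could vary more, the shares were 24.8% and 5.50%. Across these 9152 tiles the CKO zygote libraries had a Pearson r of 0.133 and a Spearman rho of 0.150, and r was 0.216 over the 356 tiles with at least 50 counts in every library. Tiles share their library and depth, so these are descriptions without a test. The covariance of the libraries corresponds to an SD of 9.49 points for the tile differences that both have, beside total SDs of 24.9 and 27.2 points. Tiles that had lost their methylation in the replicate 1 libraries (sperm at 80% or more, CKO zygotes at 20% or less) were then read in the replicate 2 libraries. Those 391 tiles averaged 8.45% in CKO zygote replicate 1 and 64.5% in replicate 2, where all tiles with the same sperm criterion averaged 69.9%. Of the 391, 38 (9.72%) were again at 20% or less, against 6.28% of all 9135 such tiles. Chosen on replicate 2, 601 tiles went from 7.04% to 66.0% in replicate 1, where all averaged 69.99%, and 6.66% of them met the limit again, against 4.29% of all.

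Tiles that stayed high were repeated to a similar small degree. The 3783 tiles at 80% or more in sperm and CKO zygotes of replicate 1 averaged 73.8% in CKO zygote replicate 2, and 49.9% of them were again at 80% or more, against 43.2% of all. Read in WT zygotes, libraries that took no part in the choice, the tiles kept in replicate 1 stood at 64.5% and 64.6% (1906 tiles with enough counts) and the lost ones at 49.8% and 54.9% (169 tiles). All tiles with the same sperm criterion were at 58.5% and 59.0% there (4626 tiles). The tiles chosen as low in CKO zygotes were thus also below the class mean in both WT zygote libraries.

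**Figure D5:**
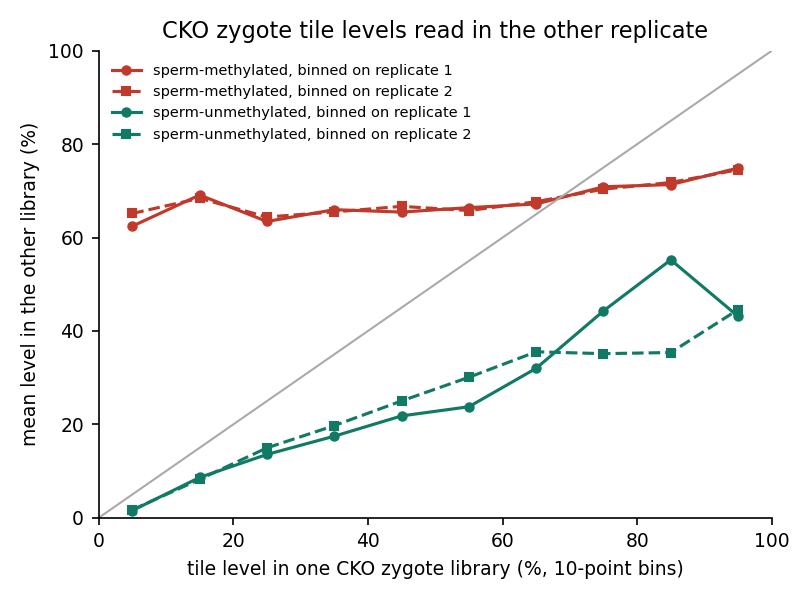
Mean level in one CKO zygote library (y axis, percent) of tiles binned by their level in the other (x axis, percent, bins of 10 points), for sperm-methylated and sperm-unmethylated tiles; the grey line is equality. Sperm-methylated tiles form a shallow slope, from 62.4% in the lowest bin to 74.9% in the highest when binned on replicate 1, while sperm-unmethylated tiles rise from 1.56% in the lowest bin to 32.0% at 60% to 70%.

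Tile by tile, edgeR's quasi-likelihood test with Benjamini-Hochberg adjustment called 470 of 25240 tiles lower in CKO zygotes (1.86%), of which 464 were sperm-methylated and 6 intermediate. These classes made up 36.3% and 14.3% of the tiles tested. Called tiles lay on all 19 autosomes, with a median difference of -54.8 points, from 98.1% in sperm to 42.2% in CKO zygotes. The median over all tiles tested was -1.39 points. Of the 470, 20.4% had at least 4 positions, against 8.35% of all sperm-methylated tiles. Lost tiles chosen by level alone went the other way, with 6.14% (replicate 1) and 7.15% (replicate 2). All tiles with the same sperm criterion had 8.41% and 8.67%. The part of depth in these gaps was not tested. A fall in which both zygote libraries lay below both sperm libraries was far more common, at 7624 tiles (30.2%). Leaving out a library leaves a group of 1, which is then assumed to vary like the other group. Without sperm replicate 1, sperm replicate 2, CKO zygote replicate 1 or CKO zygote replicate 2, edgeR called 0 tiles, with 703, 774, 3669 and 3304 lower tiles at an unadjusted p below 0.05. limma called 0 tiles, with 4738 lower at an unadjusted p below 0.05. Counts at an unadjusted p below 0.05, here and later, can include tiles that pass with no change and are not calls.

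The 8 tiles with the largest falls, among called tiles with at least 20 counts in every library, changed by -98.7 to -78.9 points. On chromosome 18 at 38568401 to 38568500, a tile of 5 positions, sperm replicates were 100% in both (21 and 40 counts) and CKO zygotes 0% and 2.56% (21 and 39 counts, edgeR adjusted p = 0.0111). WT zygote replicate 1 read 100% of 24 counts there and replicate 2 had no count. On chromosome 11 at 109456801 to 109456900, also with 5 positions, sperm was 92.9% and 98.2% and CKO zygotes 2.50% and 30.0% (adjusted p = 0.0138). WT zygotes were low there as well, at 10.0% and 14.3%. The tile on chromosome 7 at 73975301 to 73975400 went from 95.5% and 88.1% in sperm to 0% and 20.0% in CKO zygotes (adjusted p = 0.0228), and WT zygotes held 30.0% and 27.8%. On chromosome 1 at 182894701 to 182894800, sperm was 100% and 98.2% and CKO zygotes 20.0% and 9.09% (adjusted p = 0.0138), while WT zygotes were 88.3% and 40.0%. The remaining 4, on chromosomes 8, 7, 4 and 1, had 1 CKO zygote library at 0% and the other at 11.8% to 39.1%. In the 8 tiles both CKO zygote libraries lay below both sperm libraries, which the rule for naming tiles required.

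The 5 called tiles with the most counts show the more usual, partial loss. On chromosome 1 at 166753301 to 166753400, with 8 positions, sperm was 97.6% and 98.6% (415 and 636 counts) and CKO zygotes 62.5% and 75.7% (232 and 247 counts), with an edgeR adjusted p of 0.0111. On chromosome 7 at 52289301 to 52289400, sperm was 99.4% and 100% and CKO zygotes 25.7% and 55.5% (140 and 155 counts, adjusted p = 0.00877). The largest fall of the 5 was on chromosome 1 at 169533601 to 169533700, from 98.1% and 96.1% to 39.1% and 17.4% (220 and 138 counts, adjusted p = 0.00345). The other two, on chromosome 11 at 118204601 to 118204700 and chromosome 1 at 71933501 to 71933600, held 65.4% and 67.8%, and 76.3% and 66.2%, in CKO zygotes. Each of these tiles had at least 131 counts per library, and the SD between CKO zygote replicates ran from 1.66 to 21.1 points.

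At the other end, 137 of the 3331 sperm-methylated tiles with at least 20 counts in every library read 100% in both CKO zygote libraries. Over all sperm-methylated tiles, single CKO zygote libraries read 100% in 19.1% and 23.5%. Some tiles would thus be at 100% in both even if the libraries were unrelated, and an excess over that number was not tested. The 8 deepest of the 137 had between 45 and 104 counts in the CKO zygote libraries. On chromosome 9 at 7961401 to 7961500, CKO zygotes had 100% of 54 and of 66 counts, sperm had 98.5% and 100%, and WT zygotes 91.3% and 100%. A tile of 4 positions on chromosome 17 at 88061101 to 88061200 read 100% of 104 and of 52 counts in CKO zygotes and was still at 100% and 85.7% in CKO blastocysts, while the chromosome 9 tile had dropped to 6.25% and 9.09% there. In 7 of the 8 tiles both WT zygote libraries also read 91.3% or more. The exception was chromosome 4 at 57275701 to 57275800, with 83.3% and 18.2% in WT zygotes and 100% of 66 and of 45 counts in CKO zygotes (edgeR adjusted p = 0.139 for CKO against WT zygotes). Over all 4631 sperm-methylated tiles with enough counts, WT zygotes averaged 58.5% and 59.0%, with 1392 tiles at 60% or more in both libraries. The 8 tiles were picked for their CKO zygote level and depth, so they do not stand for the class.

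Gains were rarer, and a small set of tiles carried them. Of the 12473 sperm-unmethylated tiles, 84.0% and 86.1% read exactly 0% in CKO zygotes, more than in the deeper sperm libraries (75.7% and 79.4%). Yet 5.28% and 4.95% of them exceeded 20%, against 0.762% and 1.24% in sperm, and 0.930% and 1.00% reached 60% or more. The latter share averaged 0.966% and fell to 0.558% in tiles with at least 20 counts in every library. The class limit itself keeps sperm levels low. The share above 20% was 5.12% ± 0.227 in CKO zygotes and 1.00% ± 0.340 in sperm (SD, n = 2 each). The mean rise was 1.68 ± 0.183 points in tiles of at most 3 positions (5670) and 1.69 ± 0.150 points with 4 to 7 (4636). It was smaller, at 1.25 ± 0.0178 points, with at least 8 (2167), and the differences between these groups were not tested. In the last group sperm was at 0.284% and CKO zygotes at 1.53%.

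Gained tiles were repeated in the other replicate in 31.5% and 30.1% of cases, against 1.06% and 0.973% of all tiles with the same sperm criterion. For lost tiles the shares were 9.72% and 6.66%, against 6.28% and 4.29% of all. The limits differ (60% or more for gained, 20% or less for lost), so the 2 rates are not measured alike. Tiles at 20% or less in sperm replicate 1 and at 60% or more in CKO zygote replicate 1 numbered 127, and in the replicate 2 libraries they read 8.80% in sperm and 41.2% in CKO zygotes. All 12508 tiles with the same sperm criterion averaged 1.75% in sperm replicate 2 and 2.98% in CKO zygote replicate 2. The gained tiles were thus above their class in the other sperm library as well. Of the 127, 40 (31.5%) were again at 60% or more, against 1.06% of all. Chosen on replicate 2, 133 tiles read 7.90% in sperm and 38.3% in CKO zygotes of replicate 1, and 40 (30.1%) reached 60% again, against 0.973% of all. All 12438 tiles of that criterion averaged 1.56% in sperm and 3.13% in CKO zygotes of replicate 1. Read in WT zygotes, the 75 tiles of the first choice with enough counts were at 42.1% and 38.8%, close to the 39.7% of the CKO zygote library not used for the choice. The 74 of the second choice were at 36.1% and 37.9%, beside 38.9% in that CKO library.

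In the same edgeR fit, 103 of 25240 tiles were called higher in CKO zygotes (0.408%), of which 102 were sperm-unmethylated and 1 intermediate. Sperm-unmethylated tiles made up 49.4% of the tiles tested. The 103 had a median difference of 51.2 points, from 0.182% in sperm to 52.1% in CKO zygotes, and lay on all 19 autosomes. Of the 103, 70 (68.0%) had at least 4 positions, against 54.5% of all sperm-unmethylated tiles. The gained tiles chosen by level alone, without the test, went the other way: 36.2% of the 127 and 33.1% of the 133 had at least 4 positions, against 54.4% and 54.6% of all with the same sperm criterion. Tiles with more positions also hold more counts, and the part of depth in these gaps was not tested. In 34 of the 77 called tiles with 2 or more positions covered by at least 5 counts in each library, every such position was higher in both CKO zygote libraries than in both sperm libraries. These positions hold the counts that made the calls, so this describes the calls and is no separate support for them. The same share is not given here for tiles that were not called. As with the lower tiles, no edgeR call remained without any one of the 4 libraries. limma called 0 of the 25240 tiles higher, with 1178 at an unadjusted p below 0.05.

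The 8 called tiles with the largest gains and at least 20 counts per library rose by 71.8 to 84.9 points. On chromosome 8 at 25706001 to 25706100, with 4 positions, sperm read 0% and 2.70% (169 and 111 counts) and CKO zygotes 83.6% and 75.9% (73 and 54 counts, edgeR adjusted p = 0.00345). WT zygotes read 93.7% and 97.0% there. On chromosome 16 at 35363901 to 35364000, with 7 positions, sperm read 0% of 49 and of 54 counts and CKO zygotes 90% and 73.2% (20 and 127 counts, adjusted p = 0.0111), beside 91.5% and 66.7% in WT zygotes. The tile on chromosome 7 at 90943001 to 90943100 went from 0% and 4.17% in sperm to 66.7% and 86.1% in CKO zygotes (adjusted p = 0.0138), with 71.4% and 88.9% in WT zygotes. A tile of 10 positions on chromosome 18 at 36038701 to 36038800 went from 2.56% and 0% to 85.5% and 60.6% (adjusted p = 0.00877), with 83.8% and 75.6% in WT zygotes. In these 4 tiles both genotypes were high and sperm was near 0%. The largest gain of all, on chromosome 17 at 63154401 to 63154500, was from 6.90% and 0% to 87.5% and 89.3% (adjusted p = 0.0129), and WT zygote replicate 1 read 0% of 36 counts while replicate 2 had 2 counts. The others lay on chromosomes 4, 5 and 11. On chromosome 4 the WT zygote libraries were split, at 8.33% of 12 counts and 100% of 10 counts. On chromosome 5 WT zygote replicate 1 read 80% of 20 counts, and on chromosome 11 replicate 2 read 73.5% of 34 counts. The other WT zygote library had no count at either tile.

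The 5 called higher tiles with the most counts were dense, with 13 to 18 positions, and rose to lower levels. On chromosome 1 at 33777101 to 33777200, sperm read 0.654% and 0% (306 and 384 counts) and CKO zygotes 47.7% and 66.4% (199 and 146 counts, edgeR adjusted p = 0.00282), beside 42.2% and 40.0% in WT zygotes. On chromosome 1 at 190831501 to 190831600, CKO zygotes read 44.8% and 32.1% and WT zygotes 20.3% and 19.2%, where sperm had 0.461% and 0%. On chromosome 12 at 102321301 to 102321400, CKO zygotes read 24.4% and 24.3% (234 and 181 counts) while sperm read 0% in 233 and in 324 counts and WT zygotes 0% and 2.80%. On chromosome 19 at 29175801 to 29175900, CKO zygotes read 38.1% and 17.3% and WT zygotes 0% and 8.89%. For neither of these last tiles did CKO differ from WT zygotes past the threshold (adjusted p = 0.314 and 0.393, edgeR). The fifth, on chromosome 8 at 112485801 to 112485900, read 9.59% and 31.7% in CKO zygotes.

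How much of the change took place with and without maternal Tet3 was read over the 15412 tiles that also had 10 counts in each WT zygote library. Against the same sperm libraries, sperm-methylated tiles changed by -26.2 ± 0.184 points in CKO and -37.5 ± 0.331 points in WT zygotes (SD of the difference, 4631 tiles), keeping 72.8% and 61.0% of the sperm level. The direct difference, CKO minus WT zygotes, was 11.4 ± 0.377 points. Intermediate tiles kept 75.8% and 62.0% (2114 tiles), a difference between genotypes of 7.23 ± 0.296 points. Sperm-unmethylated tiles rose by 1.47 ± 0.0905 points in CKO and 1.15 ± 0.114 points in WT zygotes (8667 tiles), which differed from each other by 0.324 ± 0.10 points. All 3 genotype differences exceeded the spread between replicates, at an exact two-sided permutation p of 0.333, the smallest possible with 2 libraries a group. Emptied tiles were fewer in CKO zygotes: 3.71% and 5.51% of sperm-methylated tiles were at 20% or less in CKO zygotes and 12.7% and 12.6% in WT zygotes. For tiles at 60% or more among the sperm-unmethylated, the shares were 0.819% and 0.831% in CKO and 0.750% and 0.658% in WT zygotes.

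In an edgeR fit of these 6 libraries, CKO zygotes were lower than sperm in 607 tiles (3.94%) and higher in 133 (0.863%), and WT zygotes were lower in 1777 (11.5%) and higher in 157 (1.02%). Both comparisons use the same sperm libraries. Between the genotypes, 14 tiles were higher (0.0908%) and 3 lower (0.0195%) in CKO zygotes, and limma called 0 in both directions, with 1122 higher and 363 lower at an unadjusted p below 0.05. Of the 14, 13 were sperm-methylated. The call with the smallest adjusted p among these, on chromosome 6 at 93658101 to 93658200, read 100% in both CKO zygote libraries (36 and 40 counts). WT zygotes read 21.2% and 0% there (156 and 20 counts), and sperm 97.7% and 100% (adjusted p = 0.00257). The reverse was seen on chromosome 12 at 107480501 to 107480600, with 7.69% and 0% in CKO and 81.8% and 95.5% in WT zygotes (adjusted p = 0.0366). Without sperm replicate 1 or sperm replicate 2, edgeR called 0 tiles in either direction, with 416 and 422 higher and 76 and 77 lower at that unadjusted limit. Without WT zygote replicate 1, WT zygote replicate 2 or CKO zygote replicate 1 it called 29, 86 and 45 higher, and with the replicate number as a block 2 higher and 0 lower.

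The tiles called in CKO zygotes were last read in libraries that took no part in the calls. Of the 470 lower tiles, 335 had enough counts in WT zygotes and averaged 51.0% and 52.6% there, below the 58.5% and 59.0% of all sperm-methylated tiles. In CKO blastocysts 347 of them averaged 33.1% and 30.6%, where all sperm-methylated tiles averaged 35.8% and 35.0%. In WT blastocysts 372 averaged 21.0% and 20.5%, against 26.7% and 25.8% for all. Of the 103 higher tiles, 79 averaged 40.6% and 37.1% in WT zygotes, where all sperm-unmethylated tiles stood at 2.54% and 2.42%. In blastocysts they were lower but not at the level of the class: 74 tiles averaged 20.3% and 19.7% in CKO blastocysts, and 79 averaged 21.9% and 21.5% in WT blastocysts. All sperm-unmethylated tiles averaged 1.74% and 1.66% in CKO and 1.77% and 1.63% in WT blastocysts. Of the 74 called tiles, 39 were at 20% or less in both CKO blastocyst libraries and 3 at 60% or more in both. Among all 7368 sperm-unmethylated tiles read there, 7033 and 3 were. WT blastocysts had similar counts, with 34 and 3 of the 79 called tiles, against 7506 and 8 of 7848 sperm-unmethylated tiles.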

How the data were processed

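RRBS reads were mapped to mm9 by the authors. The submitters' processing notes name Bismark 0.10.1 and Trim Galore. Their settings are not given in any source here. The deposited files give, per cytosine position, methylated and unmethylated read counts (not normalized) and a deposited percent methylation, which equalled the percent recomputed from those counts. Samples were grouped by their titles. Counts were summed over autosomal 100-bp tiles, and tiles with at least 10 counts in each of the 4 libraries were kept. Tile levels were averaged per library and compared by exact permutation over libraries. Sperm classes (80% or more, 20% or less, and between) came from pooled sperm counts.

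The test per tile was the quasi-likelihood F-test of edgeR 4.0.16, run in R 4.3.3 on both counts, with a depth term per library, a negative binomial dispersion of 0 and Benjamini-Hochberg adjustment at 0.05. On simulated counts this test recovered most large changes, but its false calls exceeded the share that the threshold allows, while a common dispersion gave no false call and recovered chiefly the largest changes, and limma 3.58.1 made no call at all, true or false. Single calls are therefore less firm than their adjusted p-values. Tiles named were, among calls with at least 20 counts per library, a difference of at least 20 points and no overlap, the 8 with the largest difference and the 5 with the highest smallest count per direction, and the 8 sperm-methylated tiles with the highest CKO zygote level. The groups, classes and rules were chosen with earlier results of these data known. The splits by distance, sperm level and window, and the fit with WT zygotes, were added after the data were seen. No sequence is shown, since no genome of the build was used here, and imprinting control regions were not analysed here.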

Additional observations from a re-analysis of the deposited data

Results flagged for a closer look

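Single tiles passed the test of the difference between CKO and WT zygotes in one fit (edgeR quasi-likelihood, 6 libraries, adjusted p below 0.05) and not in others. CKO zygotes were higher in 14 tiles and lower in 3 of 15412, with 763 and 172 at an unadjusted p below 0.05. Of the 14, 13 were sperm-methylated, and of the 3, 2 were sperm-methylated and 1 intermediate. Of the 15412 tiles tested, 4631 were sperm-methylated and 2114 intermediate. The smallest count in any of the 6 libraries ran from 12 to 90 over the 14 tiles and from 12 to 35 over the 3. With limma, and with edgeR without either sperm replicate, 0 tiles were called in either direction, and with the replicate number as a block 2 higher and 0 lower. At an unadjusted p below 0.05, limma had 1122 higher and 363 lower. The cause was not tested.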

How the results depend on the processing

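The mean changes from sperm, the CKO minus WT differences of sperm-methylated and sperm-unmethylated tiles, and the 3 shares of tiles at 20% or less, 80% or more and 60% or more kept their direction under the alternatives run on them. These were count minimums of 5 and 20 for all, leaving out each sperm and CKO library (for CKO minus WT, each zygote library only), single positions and the replicate block (not for shares), and, for changes from sperm, pooled counts and, by class, 1 sperm replicate as the basis. No alternative was run on the CKO minus WT difference of intermediate tiles. Sperm-methylated tiles changed by -26.8 to -25.5 points and all tiles by -12.2 to -5.48 points (pooled counts). None of these can pass a permutation test with 2 libraries a group. The tile counts (470 lower, 103 higher) depended on the test. They were 3255 and 406 by edgeR's likelihood ratio test, and 7918 and 1330 by Fisher's exact test on summed replicates, blind to their spread. They were 0 and 0 by limma, and also with a common dispersion (2513 and 330 at an unadjusted p below 0.05). A count minimum of 5 gave 19 and 19 of 37786 tiles, a minimum of 20 gave 1115 and 201 of 12614, and single positions gave 155 and 27 of 26774. Leaving out any library, so that the spread came from the other group, gave 0 in both directions. The 26 named called tiles kept their call under Fisher's test, the likelihood ratio test and the replicate block, and lost it with limma, a common dispersion and each library left out (adjusted p = 0.0691 to 1). Fits with all 10 libraries (419 and 97 of 7505 tiles) and with 6 (607 and 133 of 15412) gave similar counts from fewer tiles, and so larger shares. With the replicate block the counts were 1561 and 239. The replicate differences in sperm and in CKO zygotes were nearly uncorrelated across all tiles (Pearson r = -0.0128). Whether same-numbered libraries share a batch was not tested. Between CKO and WT zygotes, limma gave 0 higher and 0 lower and the replicate block 2 and 0. Leaving out 1 library gave 0 to 86 higher (29 and 86 without WT zygote replicates 1 and 2, 45 without CKO zygote replicate 1, 0 without either sperm replicate) and 0 to 14 lower (5, 14, 6 and 1 without WT zygote replicates 1 and 2 and CKO zygote replicates 1 and 2). The cause of these shifts was not tested. Single tiles are limited by depth, with medians of 26 and 30 counts in the CKO zygote libraries, and by 2 libraries a group.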
